A study of Mus musculus with 12 samples.

Results

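The collagen chains and a set of stromal matrix genes were examined in 12 subcutaneous C26 tumours. The genes were all those whose symbol is a collagen chain (Col, a number, a, a number) together with Fn1, Sparc, Dcn, Lum, Bgn, Fbn1, Postn, Tnc, Lox, Loxl1, Loxl2, Mfap2, Mfap5, Dpt, Fap, Pdgfra, Pdgfrb, Thy1, Acta2 and Tagln. Each gene was read from its probe set with the highest mean over the 12 arrays, among probe sets annotated to 1 symbol. This gave 54 of the 64 genes that the rule names, out of 12393 genes measured: 36 of 44 collagen genes and 18 of the 20 others. Fbn1, Loxl2 and 8 collagen genes were not analysed here.

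C26 is a murine colon carcinoma line, grown here under the skin of the dorsal flank of Balb/c mice aged 6 weeks. The CP-Dox group had received doxorubicin attached to a chimeric polypeptide carrier, the Dox group free doxorubicin, which is an anthracycline that damages DNA, and the PBS group buffer. Treatment was given on day 8, when tumours measured about 50 mm3, and tumours were collected 48 h later. Each group held 4 mice with 1 Affymetrix array per tumour, the dose is not given in the sources used here, and no group received the carrier alone. Tumour cells and host stroma are both of mouse origin, so the probe sets read RNA of both, and in whole tumours fewer cells of a type and less RNA per cell cannot be told apart.

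Collagens are helices wound from several chains. Types I, III and V form fibrils, type IV forms the sheet of basement membranes, and type VI forms beaded filaments at the cell surface. In tumours most fibrillar collagen comes from fibroblasts, and pericytes and endothelial cells share in making basement membrane. Small proteoglycans such as decorin and lumican coat collagen fibrils and set their width, lysyl oxidase links the fibrils covalently, and glycoproteins such as fibronectin, periostin and tenascin C join the fibrils to cell receptors.

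Several arrays stood apart in ways that touch the results. The mean correlation of CP-Dox replicate 2 with the rest of its group was 0.948 over all genes, against 0.971 to 0.977 for the other CP-Dox tumours and 0.981 to 0.990 for the Dox and PBS tumours. The 15 keratinocyte and skin markers averaged 2.36 and 3.59 log2 units above the PBS mean in CP-Dox replicates 1 and 3, and between -0.12 and 0.06 in the other 10 tumours; all 15 had positive differences in CP-Dox against PBS, and none passed the test. The 16 skeletal muscle markers ranged from -0.53 to 1.88 in CP-Dox tumours, from -2.53 to 1.64 in Dox tumours and from -2.61 to 3.45 in PBS tumours. Of 14 colon epithelial markers, 11 lay in the dimmest 40% of genes, Epcam, Cdx2, Vil1 and Krt19 among them. The 16 fibroblast markers outside the set averaged between -0.13 and 0.17 of the PBS mean in each of the 12 tumours, with single markers from -0.49 to 0.59 in CP-Dox against PBS, 7 of them above 0. The part of these differences in the results below was not tested except where a value without the libraries or with a covariate is given.

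Few of the matrix genes passed the test in any comparison. In CP-Dox tumours against PBS tumours, decorin (Dcn) and Thy1 rose, no member fell, and 52 of 54 did not pass. With arrays centred on their medians or with the muscle-marker covariate Thy1 missed the threshold and Col11a1 passed it as lower, and Col11a1 also passed with a variance trend. The test was limma's moderated test with Benjamini-Hochberg adjustment over all 12393 genes at an adjusted p under 0.05, at which 2.35% of all genes rose and 3.23% fell (5.58% changed), so 2 of 54 (3.70%) is close to the background. The median log2 fold change of the 54 genes was 0.12, against -0.04 over all genes, and 32 of the 54 were above 0. Leaving out 1 tumour moved the count of 2 calls: it was 0 without CP-Dox replicate 1, CP-Dox replicate 3 or PBS replicate 3, and 1 without Dox replicate 1, Dox replicate 2, PBS replicate 1 or PBS replicate 4. It was 3 without Dox replicate 4, where 4.52% of all genes passed, and 6 without CP-Dox replicate 2, where 19.1% of all genes passed. The median was 0.02 without CP-Dox replicate 2 or PBS replicate 4. The direction differed with signal: the 31 members above the dimmest 40% of genes had a median of 0.34 with 26 above 0, and the 23 members within the dimmest 40% had a median of -0.10 with 6 above 0. Beside this, 6925 of all 12393 genes were below 0, and the all-gene median was 0.009 with the dimmest 40% left out. A shift of dim genes in general was not tested. In 4 genes (Dcn, Thy1, Postn and Col18a1) every CP-Dox tumour lay above every PBS tumour, and in 1 (Col11a1) every CP-Dox tumour lay below. The same held for 4.31% of all genes above and 7.75% below.

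Free doxorubicin against PBS gave no call among the 54 genes and none among all genes (0% called by limma, with 558 genes at an unadjusted p under 0.05). Their median log2 fold change was 0.12, against 0.00 over all genes, and 41 of the 54 were above 0. The median was 0.049 without Dox replicate 2, 0.058 without PBS replicate 4 and 0.21 without Dox replicate 4. Only Dcn had an unadjusted p under 0.05, and only Dcn had Dox and PBS tumours that did not overlap, where 1.71% of all genes were higher without overlap and 2.13% lower. CP-Dox against Dox gave no call among the 54 genes, where 0.226% of all genes passed, 0.0565% higher and 0.169% lower. The median was -0.03, the same as over all genes, and 25 of 54 were above 0. An unadjusted p under 0.05 was found in 7 of the 54, and in 1991 of all 12393 genes. Without CP-Dox replicate 2 there were 2 calls (Thy1 higher, Col2a1 lower), where 9.28% of all genes passed. Without Dox replicate 4 there was 1 (Thy1), where 0.145% of all genes passed. The median was 0.13 without Dox replicate 2. Here too the direction differed with signal, with a median of 0.06 (22 of 31 above 0) for the brighter members and -0.17 (3 of 23 above 0) for the dim ones. The all-gene median was 0.004 with the dimmest 40% left out. The 3 comparisons are not independent: both drug groups were set against the same PBS tumours, and CP-Dox tumours stand in 2 of the 3.

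**Figure D1:**
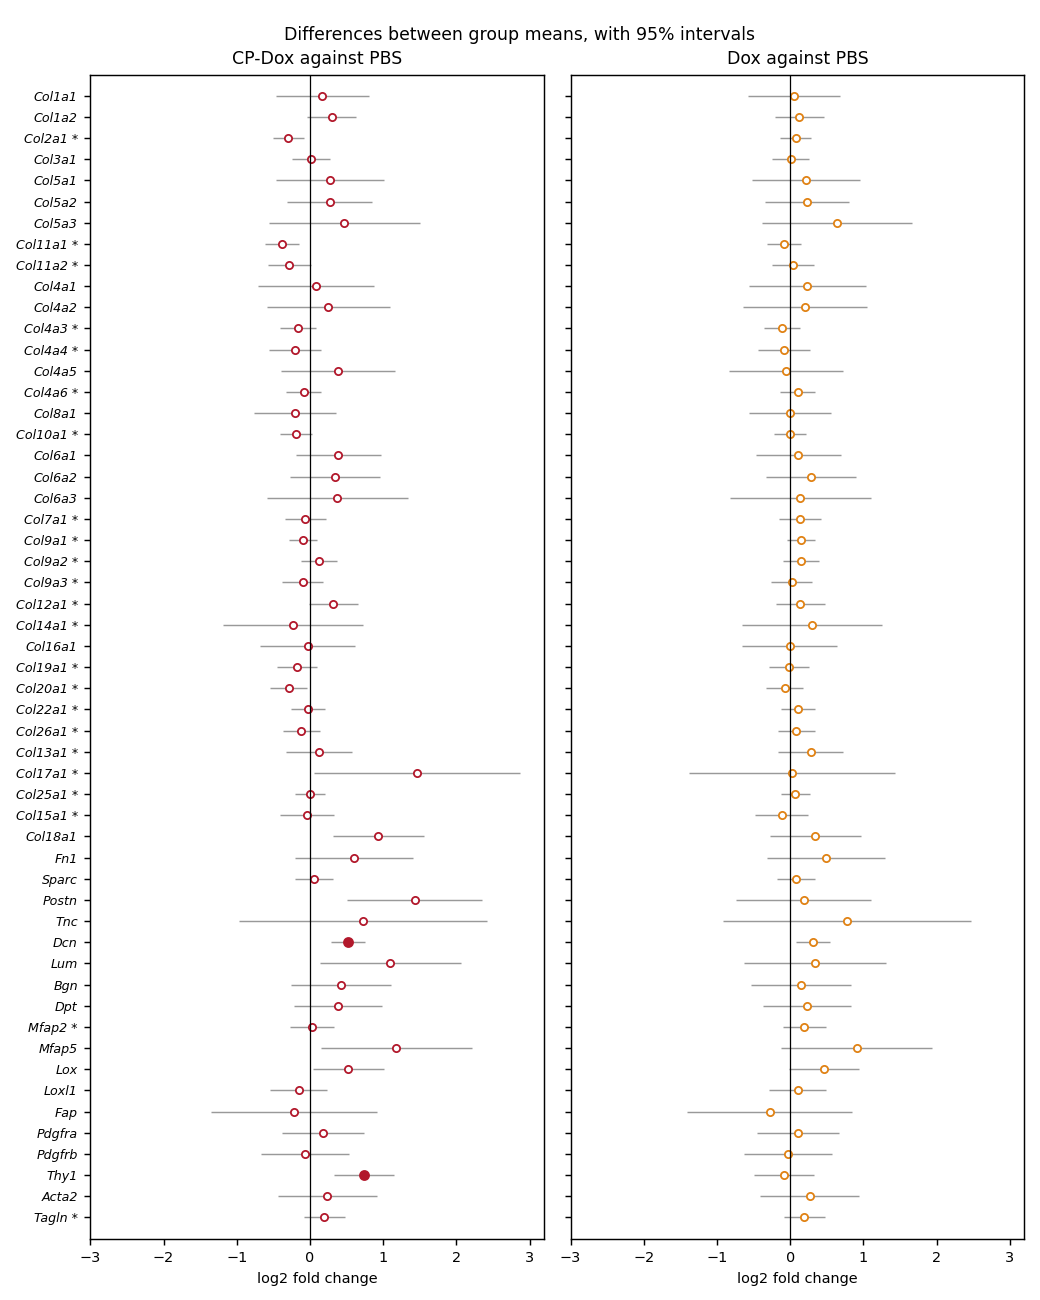
Log2 fold change (x axis) of each of the 54 genes (rows, grouped by role) with its 95% confidence interval, CP-Dox against PBS in the left panel and Dox against PBS in the right; filled points passed the test and an asterisk marks genes in the dimmest 40%. The 2 filled points, Dcn (0.52) and Thy1 (0.74), are both in the CP-Dox panel, and most intervals of the other genes include 0.

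The proteoglycans that coat collagen fibrils held 1 of the 2 calls. Dcn, the gene of decorin, which binds fibrils and sequesters TGF-beta, had log2 signals of 14.26, 13.86, 14.21 and 14.06 in CP-Dox tumours, 13.95, 13.94, 13.88 and 13.81 in Dox tumours and 13.80, 13.49, 13.58 and 13.46 in PBS tumours. Every tumour of both drug groups was above every PBS tumour, though the lowest Dox tumour only just, and the drug groups overlapped each other. The log2 fold change was 0.52 ± 0.11 (SE, n = 4 each; 1.43-fold; limma adjusted p = 0.0198) in CP-Dox against PBS, 0.31 ± 0.11 (adjusted p = 0.995, unadjusted p = 0.0118) in Dox against PBS, and 0.20 ± 0.11 (adjusted p = 0.370) in CP-Dox against Dox. The Dcn call was lost in some fits: its limma adjusted p was 0.0653 without CP-Dox replicate 1, 0.0688 without CP-Dox replicate 3 and 0.0578 without PBS replicate 3. The limma adjusted p of Dcn was 0.0792 with the 2 compared groups alone, where 1.6% of all genes passed. With CP-Dox replicates 1 and 3 both left out the Dcn fold change was 0.38 (adjusted p = 0.245), and with the skin-marker mean as a covariate it was 0.40 (adjusted p = 0.154). Only 2 and 74 of all 12393 genes passed in these fits, against 691 in the main fit. The part of skin content in the Dcn difference was not tested further.

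Lum, the gene of lumican, a related keratan sulfate proteoglycan of fibrils, had log2 signals of 9.88, 9.10, 10.57 and 9.83 in CP-Dox tumours, 8.89, 9.19, 9.21 and 9.06 in Dox tumours and 8.80, 7.27, 9.25 and 9.67 in PBS tumours. The groups overlapped, and PBS replicate 2 was the lowest of all 12. The difference was 1.10 ± 0.44 in CP-Dox against PBS (limma adjusted p = 0.165) and did not pass. Bgn, which encodes biglycan, ranged over 10.33 to 11.00 in CP-Dox tumours, 10.03 to 10.73 in Dox tumours and 9.48 to 10.97 in PBS tumours. Dpt, which encodes dermatopontin, a small decorin-binding protein, ranged over 10.04 to 10.89 in CP-Dox tumours, 9.67 to 10.82 in Dox tumours and 9.60 to 10.49 in PBS tumours. All 4 genes of this class had positive fold changes in each of the 3 comparisons, with 1 call among the 12 tests.

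Thy1 was the other call, among the fibroblast and mural cell surface genes. It encodes a GPI-anchored surface glycoprotein of fibroblasts, and also of T cells and neurons, and had log2 signals of 8.99, 8.78, 9.15 and 9.05 in CP-Dox tumours, 8.03, 7.98, 7.80 and 8.86 in Dox tumours and 8.24, 8.36, 8.24 and 8.17 in PBS tumours. All CP-Dox tumours were above all PBS tumours, and Dox replicate 4 alone of the Dox tumours reached the CP-Dox range. The log2 fold change was 0.74 ± 0.19 (SE, n = 4 each; 1.67-fold; limma adjusted p = 0.0460) in CP-Dox against PBS, -0.08 ± 0.19 in Dox against PBS (adjusted p = 0.995) and 0.82 ± 0.19 in CP-Dox against Dox (adjusted p = 0.0992). The Thy1 call against PBS sat near the threshold: its limma adjusted p was 0.109 without CP-Dox replicate 1, 0.129 without replicate 3, 0.0915 without replicate 4, 0.0655 without Dox replicate 1 and 0.0569 without Dox replicate 2. Leaving out PBS replicate 1, 2, 3 or 4 gave 0.0946, 0.0687, 0.110 and 0.0912. The call held without CP-Dox replicate 2 (0.0186), Dox replicate 3 (0.0477) or Dox replicate 4 (0.00559), and with the 2 compared groups alone (0.0215). With CP-Dox replicates 1 and 3 both left out the Thy1 fold change was 0.66 (adjusted p = 0.330), and without Dox replicate 4 the CP-Dox against Dox difference was 1.05 (adjusted p = 0.0105).

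The other surface genes did not pass. Pdgfra, a platelet-derived growth factor receptor of fibroblasts, had log2 signals of 12.09, 12.44, 11.65 and 11.46 in CP-Dox tumours, 11.96, 12.21, 11.88 and 11.34 in Dox tumours and 12.01, 12.05, 11.67 and 11.21 in PBS tumours, so the 3 groups spanned nearly the same range. Its difference was 0.17 ± 0.26 in CP-Dox against PBS, with a 95% interval of -0.39 to 0.73. Pdgfrb, the receptor of pericytes and fibroblasts, had 9.88, 10.99, 9.86 and 9.92 in CP-Dox tumours, 10.13, 10.85, 10.07 and 9.77 in Dox tumours and 10.22, 10.43, 10.31 and 9.96 in PBS tumours. Replicate 2 was the highest Pdgfrb value of each drug group, and the interval of CP-Dox against PBS was -0.67 to 0.53. Fap, a surface protease of activated fibroblasts, ranged over 7.23 to 8.34 in CP-Dox tumours, 6.24 to 8.63 in Dox tumours and 6.79 to 8.71 in PBS tumours.

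Of the matrix glycoproteins, periostin came nearest to a call. Postn, whose product is a cell-adhesion protein of collagen-rich tissue and wound beds, had log2 signals of 8.84, 8.46, 9.87 and 7.67 in CP-Dox tumours, 7.14, 7.78, 7.82 and 7.14 in Dox tumours and 7.48, 6.38, 7.66 and 7.61 in PBS tumours. Every CP-Dox tumour was above every PBS tumour, although CP-Dox replicate 4 only just, and the highest was CP-Dox replicate 3, the tumour with the highest skin-marker mean. The differences were 1.43 ± 0.42 in CP-Dox against PBS (limma adjusted p = 0.0731) and 1.24 ± 0.42 in CP-Dox against Dox (adjusted p = 0.208). Postn passed against PBS without CP-Dox replicate 2 (1.51, adjusted p = 0.0421) or without CP-Dox replicate 4 (1.78, adjusted p = 0.0351). Of all genes, 19.1% and 3.32% passed in these fits. Without CP-Dox replicate 3 the Postn difference was 1.04 (adjusted p = 0.171), without both skin-marker tumours it was 0.79 (adjusted p = 0.491), and with the skin-marker covariate 0.73 (adjusted p = 0.423).

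Fn1, the gene of fibronectin, had 12.52, 12.40, 12.68 and 12.25 in CP-Dox tumours, 12.56, 13.09, 12.50 and 11.26 in Dox tumours and 12.23, 12.29, 11.97 and 10.97 in PBS tumours. Replicate 4 was the lowest Fn1 value of every group, and the difference of 0.60 ± 0.37 in CP-Dox against PBS did not pass (limma adjusted p = 0.341). Tnc, the gene of tenascin C, an anti-adhesive protein of remodelling matrix, had 9.82, 10.70, 9.17 and 7.63 in CP-Dox tumours, 8.27, 10.74, 8.68 and 9.85 in Dox tumours and 9.28, 9.26, 9.21 and 6.69 in PBS tumours. Its within-group standard deviation of 1.24 was the widest of the 54 genes, and its interval in CP-Dox against PBS ran from -0.97 to 2.41. Sparc, whose product binds collagen and helps procollagen leave the cell surface, had 13.37, 13.76, 13.54 and 13.34 in CP-Dox tumours, 13.50, 13.57, 13.55 and 13.51 in Dox tumours and 13.59, 13.60, 13.46 and 13.16 in PBS tumours. The Sparc groups overlapped fully, and the interval of CP-Dox against PBS was -0.21 to 0.31.

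**Figure D2:**
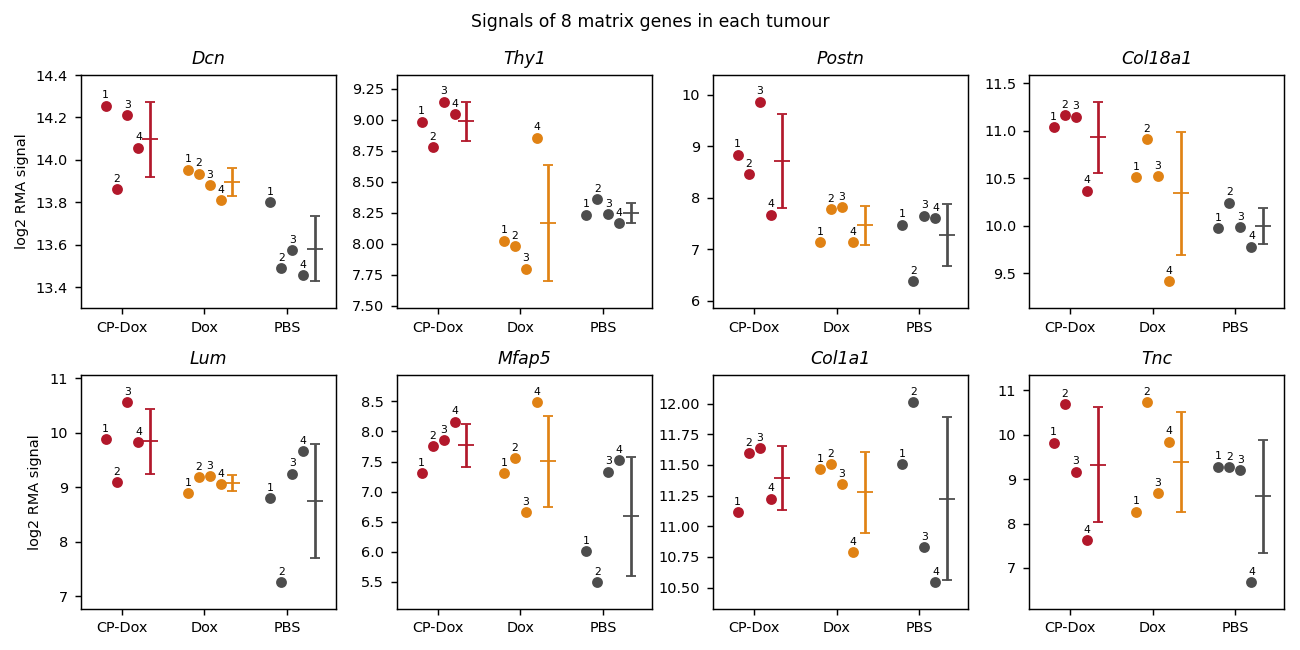
Log2 RMA signal (y axis) of 8 matrix genes in each of the 12 tumours, with CP-Dox left, Dox in the middle and PBS right; each point is 1 tumour, its digit the replicate number, and the bar beside it the group mean ± SD (n = 4). In Dcn, Thy1, Postn and Col18a1 all CP-Dox tumours lie above all PBS tumours, while Tnc spreads from 7.63 to 10.70 within the CP-Dox group alone.

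Among the collagens, Col18a1 had the largest difference of those above the dimmest 40% of genes. Col18a1 encodes the type XVIII chain of vascular and epithelial basement membranes, from which endostatin is cut. It had log2 signals of 11.03, 11.16, 11.15 and 10.37 in CP-Dox tumours, 10.51, 10.91, 10.52 and 9.41 in Dox tumours and 9.97, 10.24, 9.98 and 9.78 in PBS tumours. All CP-Dox tumours were above all PBS tumours, and replicate 4 was the lowest of each group. The differences were 0.93 ± 0.28 in CP-Dox against PBS (1.91-fold; limma adjusted p = 0.0800), 0.34 ± 0.28 in Dox against PBS and 0.59 ± 0.28 in CP-Dox against Dox (adjusted p = 0.332). Col18a1 passed against PBS without Dox replicate 4 (adjusted p = 0.0220), and was 0.77 (adjusted p = 0.473) without CP-Dox replicates 1 and 3. A second Col18a1 probe set gave 0.86 ± 0.30. Beside this, the 16 endothelial markers averaged 0.38 to 0.53 above the PBS mean in the 4 CP-Dox tumours, -0.01 to 0.29 in Dox tumours and -0.22 to 0.17 in PBS tumours, and 3 of them rose in CP-Dox against PBS. Col15a1, the other multiplexin, ranged over 6.43 to 6.61 in CP-Dox tumours, 6.03 to 6.94 in Dox tumours and 6.34 to 6.81 in PBS tumours.

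Col17a1 encodes the transmembrane collagen of hemidesmosomes, which fasten basal keratinocytes to the skin's basement membrane. It had 6.33, 4.44, 7.90 and 4.11 in CP-Dox tumours, 4.36, 4.23, 4.39 and 4.05 in Dox tumours and 4.27, 4.22, 4.21 and 4.24 in PBS tumours. The high values were CP-Dox replicates 1 and 3, the same tumours in which the 15 skin markers were high (2.36 and 3.59 above the PBS mean), while CP-Dox replicate 4 lay among the Dox and PBS tumours and CP-Dox replicate 2 just above them. The difference of 1.46 ± 0.64 in CP-Dox against PBS did not pass (limma adjusted p = 0.197). Col13a1 and Col25a1, the other transmembrane collagens measured, lay between -0.15 and 0.28 in all comparisons.

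No fibrillar collagen rose or fell in any comparison. Col1a1 and Col1a2 encode the chains of type I collagen, the main fibril protein of skin, tendon and scar. Col1a1 had log2 signals of 11.12, 11.60, 11.64 and 11.23 in CP-Dox tumours, 11.47, 11.51, 11.34 and 10.79 in Dox tumours and 11.51, 12.01, 10.83 and 10.55 in PBS tumours. The PBS tumours alone spanned the range of both drug groups, and CP-Dox against PBS was 0.17 ± 0.29, with an interval of -0.46 to 0.80. Col1a2 had 13.29, 13.39, 13.45 and 13.14 in CP-Dox tumours, 13.25, 13.32, 13.24 and 12.77 in Dox tumours and 13.18, 13.28, 12.93 and 12.69 in PBS tumours. Its difference was 0.30 ± 0.15 in CP-Dox against PBS (limma adjusted p = 0.259).

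Col3a1, the chain of type III collagen, which co-assembles with type I in distensible tissue, had 14.21, 14.09, 14.17 and 13.97 in CP-Dox tumours, 14.14, 14.24, 14.19 and 13.86 in Dox tumours and 14.25, 14.28, 14.03 and 13.85 in PBS tumours. The groups were superimposed, with a CP-Dox against PBS difference of 0.01 ± 0.12 and an interval of -0.25 to 0.27. The type V chains, which start fibrils and limit their width, differed by 0.27 (Col5a1), 0.27 (Col5a2) and 0.47 (Col5a3) in CP-Dox against PBS, none past the test. Over the 9 fibrillar chains measured, 6 were above 0, with a median of 0.17 and a range of -0.38 to 0.47.

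The 3 fibrillar chains of cartilage were below 0 in CP-Dox against PBS, as were 17 of all 23 members in the dimmest 40% of genes. Of all 12393 genes, 6925 were below 0. Col11a1, whose product nucleates cartilage fibrils, had 4.22, 4.39, 4.56 and 4.41 in CP-Dox tumours, 4.64, 4.76, 4.64 and 4.73 in Dox tumours and 4.88, 4.58, 4.99 and 4.66 in PBS tumours. Every CP-Dox tumour was below every Dox and every PBS tumour, by 0.38 ± 0.11 on average against PBS (limma adjusted p = 0.0602). Col2a1, the chain of type II collagen, had 5.63, 5.88, 5.78 and 5.75 in CP-Dox tumours, 6.03, 6.22, 6.23 and 6.05 in Dox tumours and 6.15, 5.87, 6.00 and 6.21 in PBS tumours. The CP-Dox and Dox tumours did not overlap, with a difference of -0.37 ± 0.10 (adjusted p = 0.128). Col11a2 showed -0.28 in CP-Dox against PBS and -0.32 in CP-Dox against Dox. Without CP-Dox replicate 2, where 19.1% of all genes passed, both Col11a1 (-0.38, adjusted p = 0.0450) and Col2a1 (-0.34, adjusted p = 0.0427) passed against PBS. Col11a1 also passed without PBS replicate 2 (-0.44, adjusted p = 0.0438), where 4.38% of all genes passed. All 3 genes lay in the dimmest 40% of genes, as did 8 of the 9 chondrocyte and bone markers.

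**Figure D3:**
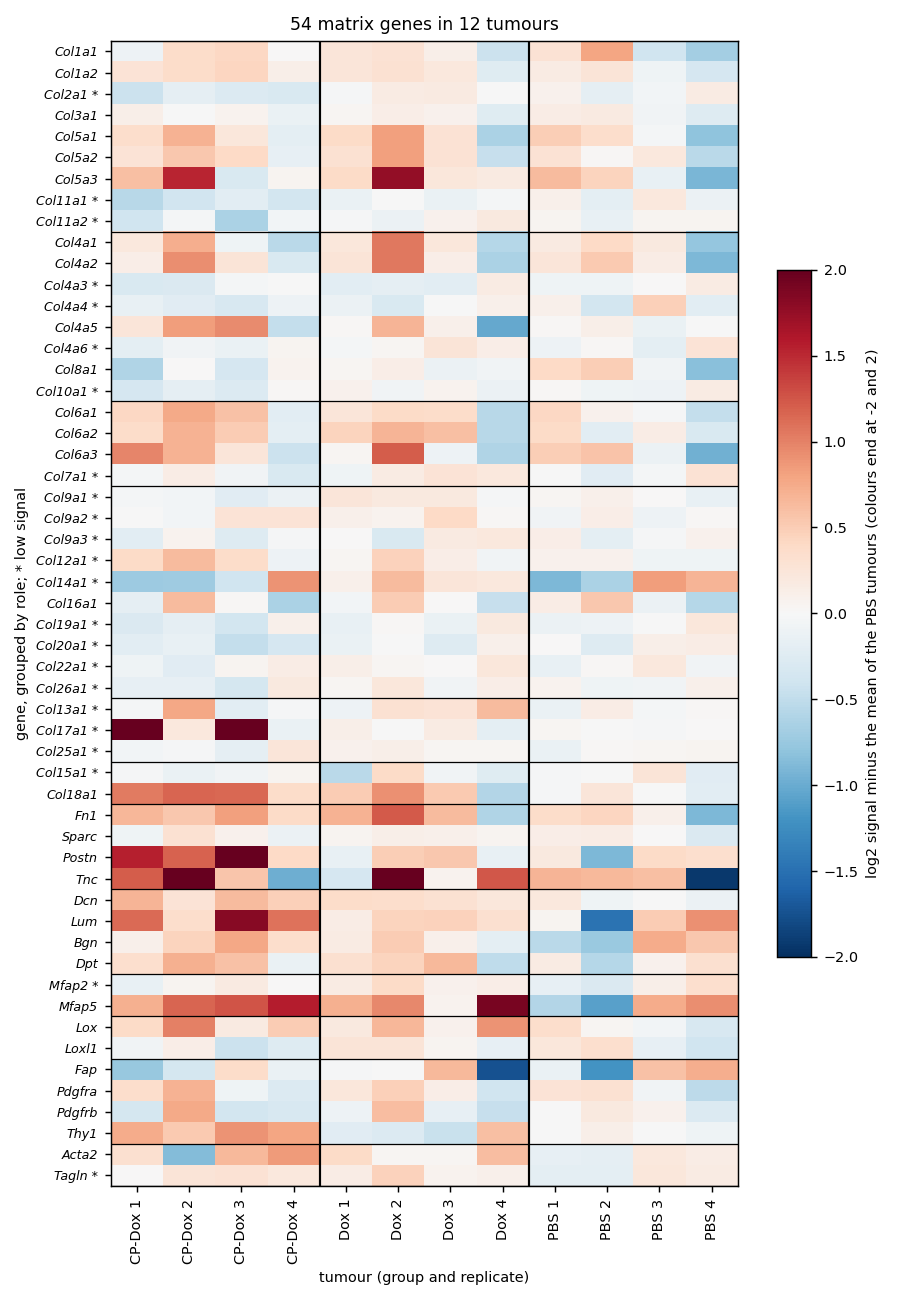
Log2 signal of each of the 54 genes (rows, grouped by role; an asterisk marks the dimmest 40%) minus its PBS mean in each tumour (columns, CP-Dox left, then Dox, then PBS); red is above the PBS mean and blue below, and colours end at -2 and 2. Columns differ within a group: over the type IV, V and VI chains of the brighter genes, replicate 2 of each drug group is red and replicate 4 of the Dox and PBS groups mostly blue.

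The basement membrane chains Col4a1 and Col4a2 encode the 2 subunits of the common type IV heterotrimer. Their genes lie head to head on chromosome 8, with annotated start sites 21 bases apart on opposite strands (GRCm38.p6, RefSeq). They are printed here because their signals followed each other more closely than those of the other 5 pairs of partner chains compared. Each window runs 5′ to 3′ on the strand of its gene, from 250 bases before to 50 after the start, and the 78 bases that both windows share are in capitals. The Col4a1 window is chr8:11312777-11313076 on the minus strand and the Col4a2 window chr8:11312555-11312854 on the plus strand.
Col4a1: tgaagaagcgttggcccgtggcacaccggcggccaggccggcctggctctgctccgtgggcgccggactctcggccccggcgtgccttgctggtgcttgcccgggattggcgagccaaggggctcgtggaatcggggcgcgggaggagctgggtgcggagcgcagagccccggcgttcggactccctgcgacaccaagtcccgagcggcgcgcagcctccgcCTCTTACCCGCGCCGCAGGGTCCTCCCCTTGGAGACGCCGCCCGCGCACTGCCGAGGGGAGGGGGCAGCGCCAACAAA
Col4a2: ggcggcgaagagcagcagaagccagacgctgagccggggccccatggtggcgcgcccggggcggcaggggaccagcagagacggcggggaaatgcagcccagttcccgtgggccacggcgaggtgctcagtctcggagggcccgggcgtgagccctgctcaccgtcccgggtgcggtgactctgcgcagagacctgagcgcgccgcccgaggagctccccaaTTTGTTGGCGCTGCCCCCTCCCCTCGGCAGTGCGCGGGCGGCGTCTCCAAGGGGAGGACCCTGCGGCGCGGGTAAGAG
In the capital stretch each sequence is the reverse complement of the other. A search of both strands for GGGCGG (the core of the GC box), CCAAT and TATAAA found GGGCGG 1 time in the Col4a1 window and 3 times in the Col4a2 window, CCAAT 1 time in each and TATAAA in neither. Among 32544 RefSeq promoter windows of the same length, 35.9% held GGGCGG, 37.4% CCAAT and 13.6% TATAAA.

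Col4a1 had log2 signals of 11.58, 12.10, 11.29 and 10.83 in CP-Dox tumours, 11.60, 12.43, 11.60 and 10.80 in Dox tumours and 11.54, 11.77, 11.56 and 10.60 in PBS tumours. Col4a2 had 10.90, 11.69, 11.02 and 10.46 in CP-Dox tumours, 11.02, 11.81, 10.90 and 10.13 in Dox tumours and 11.00, 11.29, 10.91 and 9.86 in PBS tumours. In both genes replicate 2 was the highest and replicate 4 the lowest of every group, and the groups overlapped. The differences in CP-Dox against PBS were 0.08 ± 0.36 for Col4a1 and 0.25 ± 0.39 for Col4a2, and in Dox against PBS 0.24 ± 0.36 and 0.20 ± 0.39. Of the other network chains, Col4a5 ranged over 7.02 to 8.45 in CP-Dox tumours, 6.48 to 8.19 in Dox tumours and 7.37 to 7.62 in PBS tumours, and Col8a1, a short-chain collagen of vessel walls, over 8.84 to 9.51 in CP-Dox tumours, 9.31 to 9.56 in Dox tumours and 8.60 to 9.93 in PBS tumours. Col4a3, Col4a4, Col4a6 and Col10a1 were in the dimmest 40% of genes. Over the 8 network chains, 3 were above 0 in CP-Dox against PBS, with a median of -0.12.

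Signals of partner chains of one helix were correlated over the tumours, more closely for some pairs than for others. Over the 12 tumours, Pearson's r between Col4a1 and Col4a2 was 0.966 (permutation p = 1e-05, the smallest that 100000 permutations can give; Spearman's rho 0.827, permutation p = 0.00157). Without the 2 tumours farthest from the Col4a1 median r was 0.936, and for deviations from the group means it was 0.979. Ranked among the 12392 other genes by r with the first chain, Col4a2 stood at rank 2 for Col4a1, Col6a2 at 6 for Col6a1, Col5a2 at 16 for Col5a1 and Col1a2 at 30 for Col1a1, and Col6a3 at 176 for Col6a1 and 366 for Col6a2, so other genes followed these chains more closely than their partners did. For Col5a1 and Col5a2 r was 0.937, for Col6a1 and Col6a2 0.918, and for Col1a1 and Col1a2 0.857, which became 0.822, 0.835 and 0.679 without the 2 farthest tumours. Col6a3 followed its partners less closely, at 0.782 with Col6a1 and 0.678 with Col6a2, which became 0.568 and 0.423, so these relations rest in part on 2 tumours. Benjamini-Hochberg adjusted permutation p-values over the 6 pairs ranged from 6e-05 to 0.0162 for r and from 0.00344 to 0.0294 for rho. The 12 tumours share treatment groups and array normalization, and no dissection or processing batch was given by which to split them. The permutations shuffled the tumours without regard to group or replicate number.

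**Figure D4:**
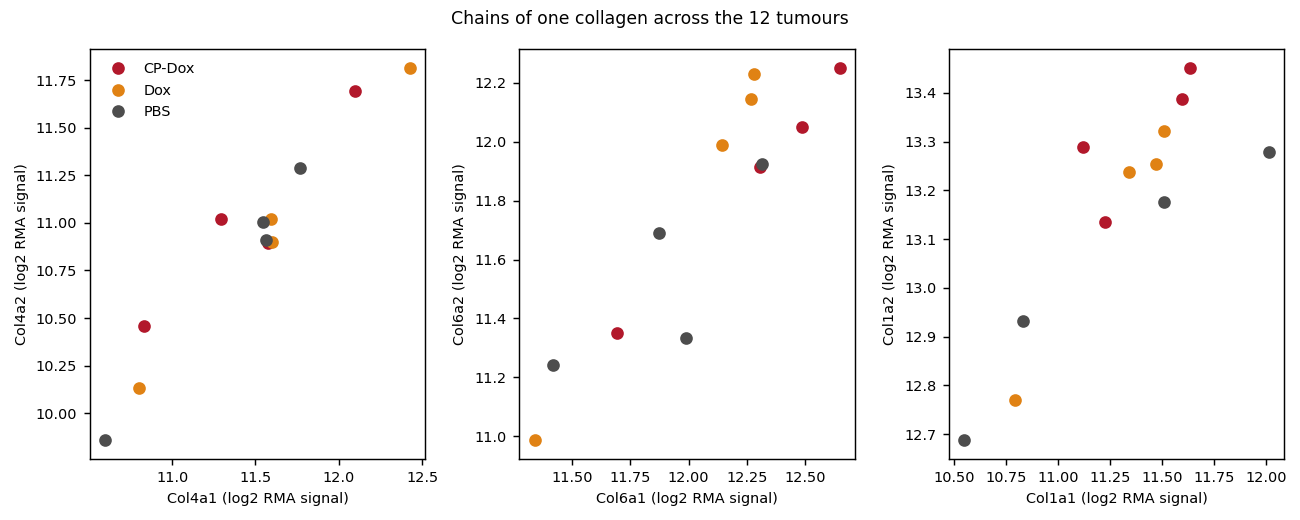
Log2 RMA signal of Col4a2 against Col4a1, Col6a2 against Col6a1 and Col1a2 against Col1a1, 1 point per tumour, with the 4 CP-Dox, 4 Dox and 4 PBS tumours in different colours. The Col4a1 and Col4a2 points lie closest to a line (r = 0.966), and the 3 groups overlap along it.

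The type VI chains did not pass either. Col6a1 had 12.31, 12.65, 12.49 and 11.69 in CP-Dox tumours, 12.14, 12.28, 12.27 and 11.34 in Dox tumours and 12.32, 11.99, 11.87 and 11.42 in PBS tumours. Replicate 4 was again the lowest of each group, and the difference in CP-Dox against PBS was 0.39 ± 0.27 (limma adjusted p = 0.394). Col6a2 and Col6a3 differed by 0.34 and 0.37 in CP-Dox against PBS, and by 0.29 and 0.14 in Dox against PBS. Col7a1, the anchoring fibril chain beneath skin epithelium, differed by -0.06 in CP-Dox against PBS. It did not share the high values of Col17a1, with 6.07 and 6.03 in CP-Dox replicates 1 and 3 and 5.81 to 6.39 in the other 10 tumours.

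Of the 10 fibril-associated collagens, which decorate fibrils without forming them, only Col16a1 lay above the dimmest 40% of genes. Col16a1 ranged over 9.05 to 10.32 in CP-Dox tumours, 9.22 to 10.19 in Dox tumours and 9.11 to 10.22 in PBS tumours, with a difference of -0.03 in CP-Dox against PBS. Col9a1, a chain that coats cartilage fibrils, had 5.84, 5.82, 5.65 and 5.76 in CP-Dox tumours, 6.11, 6.07, 6.06 and 5.85 in Dox tumours and 5.92, 5.97, 5.88 and 5.72 in PBS tumours. Every CP-Dox tumour lay below every Dox tumour for Col9a1, the nearest only just, and the difference of -0.26 ± 0.09 did not pass (limma adjusted p = 0.208). With Col2a1 and Col11a1 this made 3 of 54 genes whose CP-Dox tumours all lay below the Dox tumours, against 6.34% of all genes, and no member whose CP-Dox tumours all lay above, against 3.29%. Over the 10 chains, 2 were above 0 in CP-Dox against PBS (median -0.10) and 1 in CP-Dox against Dox (median -0.15). Col14a1 had the widest range of the 9 dim ones, 4.97 to 6.59 in CP-Dox tumours, 5.79 to 6.33 in Dox tumours and 4.80 to 6.53 in PBS tumours.

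The crosslinking, microfibril and contractile genes gave no call. Lox, the gene of lysyl oxidase, had 8.56, 9.19, 8.36 and 8.69 in CP-Dox tumours, 8.37, 8.84, 8.27 and 9.08 in Dox tumours and 8.53, 8.21, 8.12 and 7.86 in PBS tumours. The differences were 0.52 ± 0.22 in CP-Dox against PBS (limma adjusted p = 0.183) and 0.46 ± 0.22 in Dox against PBS (adjusted p = 0.995), with overlap in both. Loxl1, an elastin-linking relative, ranged over 10.79 to 11.35 in CP-Dox tumours, 11.05 to 11.48 in Dox tumours and 10.81 to 11.55 in PBS tumours. Mfap5, which encodes a fibrillin-binding microfibril protein, had 7.30, 7.76, 7.85 and 8.16 in CP-Dox tumours, 7.30, 7.55, 6.66 and 8.49 in Dox tumours and 6.01, 5.50, 7.33 and 7.52 in PBS tumours. PBS replicates 1 and 2 were the lowest Mfap5 values of all, and Dox replicate 4 was the highest. The 8 adipocyte markers averaged 0.33, 0.70, 1.13 and 0.70 relative to the PBS mean in CP-Dox tumours, -0.37, 0.15, -0.15 and 0.93 in Dox tumours and -0.21, -0.42, 0.11 and 0.53 in PBS tumours, and their part in the Mfap5 values was not tested. The muscle markers were low in PBS replicates 1 and 2 (-2.53 and -2.61) and in Dox replicates 1, 3 and 4 (-2.53, -2.52 and -2.49). The part of muscle content in the Mfap5 values was not tested either. The Mfap5 difference was 1.18 ± 0.47 in CP-Dox against PBS (adjusted p = 0.162). Mfap2, another microfibril protein gene, differed by 0.03.

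Acta2, the smooth muscle actin of myofibroblasts and mural cells, had 10.09, 8.90, 10.42 and 10.62 in CP-Dox tumours, 10.15, 9.81, 9.81 and 10.38 in Dox tumours and 9.60, 9.58, 9.97 and 9.92 in PBS tumours. CP-Dox replicate 2 was the lowest of all 12, the other 3 CP-Dox tumours were above all PBS tumours, and the difference of 0.24 ± 0.31 did not pass. Without CP-Dox replicate 2 it was 0.60 and passed (limma adjusted p = 0.0350), as did 19.1% of all genes. Tagln, which encodes the actin-binding protein transgelin, had 6.08, 6.34, 6.36 and 6.29 in CP-Dox tumours, 6.23, 6.53, 6.14 and 6.18 in Dox tumours and 5.88, 5.88, 6.31 and 6.25 in PBS tumours. Tagln lay in the dimmest 40% of genes, its groups overlapped, and its difference was 0.19 ± 0.13 in both drug groups against PBS.

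Tumours of one group varied widely in these genes. The median within-group standard deviation was 0.33 log2 units over the 54 genes, against 0.18 over all genes, and the widest were Tnc (1.24) and Col17a1 (1.02). PBS replicate 4 held the lowest value of 16 of the 54 genes, and Dox replicate 2 and CP-Dox replicate 2 held the highest of 12 and 11. The 15 collagens above the dimmest 40% of genes averaged 0.27, 0.66, 0.30 and -0.18 relative to the PBS mean in CP-Dox tumours, 0.22, 0.72, 0.20 and -0.46 in Dox tumours and 0.28, 0.32, -0.03 and -0.57 in PBS tumours. Each group thus held a tumour high and a tumour low in these collagens, and the spread within a group exceeded the differences between groups. The 4 proteoglycan-class genes were ordered otherwise, at 0.56, 0.45, 0.96 and 0.44 in CP-Dox tumours, 0.25, 0.44, 0.38 and -0.04 in Dox tumours and -0.03, -0.72, 0.34 and 0.41 in PBS tumours.

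The keratins Krt8 and Krt18, cytoskeletal proteins of simple epithelia and 2 of the 3 colon epithelial markers above the dimmest 40% of genes, were high in some of the same tumours as the collagens. Krt8 had 9.97, 12.05, 9.17 and 9.21 in CP-Dox tumours, 10.42, 11.44, 10.70 and 10.04 in Dox tumours and 11.28, 10.30, 10.19 and 9.47 in PBS tumours. Krt18 had 6.88, 10.33, 6.07 and 5.74 in CP-Dox tumours, 7.60, 9.25, 8.00 and 6.61 in Dox tumours and 8.75, 8.63, 8.13 and 7.32 in PBS tumours. Replicate 2 was the highest of both drug groups for both keratins, as it was for the mean of the 15 collagens. In PBS tumours replicate 1 was the highest for both keratins and replicate 2 for the collagens. Krt18 was below every PBS tumour in CP-Dox replicates 1, 3 and 4 and in Dox replicate 4. The collagen means of these tumours were 0.27, 0.30, -0.18 and -0.46. The part of tumour cell content in the collagen values was not tested.

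**Figure D5:**
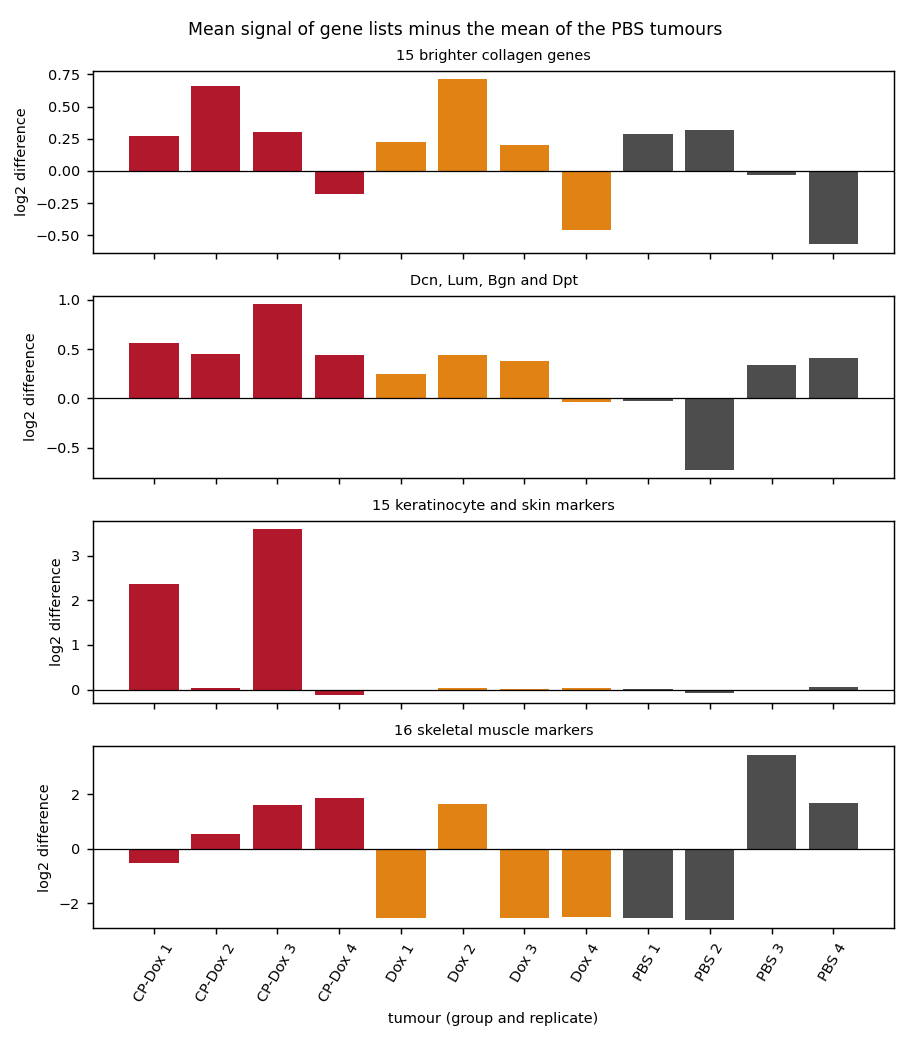
Mean log2 signal of 4 gene lists in each tumour minus the mean of the PBS tumours, with CP-Dox tumours left, then Dox, then PBS; each bar is 1 tumour, and each panel has its own y axis from 0. The 15 collagens above the dimmest 40% of genes run from -0.57 to 0.72 with high and low tumours in every group, and the skin markers are high in CP-Dox replicates 1 and 3 (2.36 and 3.59).

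Genes that make, bind or signal to the matrix, from lists outside the set, gave 4 calls among 104 genes (3.85%) in CP-Dox against PBS, which is below the 5.58% of all genes called, and none in the other comparisons. Of 18 genes of collagen synthesis and processing, 1 fell and none rose. Colgalt1, which adds galactose to hydroxylysines of new collagen chains, had 9.80, 10.28, 9.72 and 9.76 in CP-Dox tumours, 10.33, 10.48, 10.44 and 10.19 in Dox tumours and 10.55, 10.64, 10.59 and 10.52 in PBS tumours. All CP-Dox tumours were below all PBS tumours, as were 7.75% of all genes. All Dox tumours were below all PBS tumours too, though the highest only just, as were 2.13% of all genes. Colgalt1 fell by 0.68 ± 0.12 on the log2 scale in CP-Dox against PBS (limma adjusted p = 0.0108). It was -0.21 ± 0.12 in Dox against PBS and -0.47 ± 0.12 in CP-Dox against Dox, neither past the test.

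Of 26 other proteoglycans and matrix glycoproteins 3 rose and none fell, with a list median of -0.02. Tnxb, the gene of tenascin X, a collagen-spacing protein of loose connective tissue, had 6.50, 6.82, 6.47 and 6.86 in CP-Dox tumours, 6.15, 6.60, 6.01 and 6.58 in Dox tumours and 5.86, 5.84, 6.08 and 5.99 in PBS tumours, and rose by 0.72 ± 0.15 (limma adjusted p = 0.0208). Vcan, the gene of versican, a large hyaluronan-binding proteoglycan, had 11.00, 9.47, 10.17 and 10.14 in CP-Dox tumours, 9.37, 10.10, 9.53 and 9.06 in Dox tumours and 9.50, 8.74, 8.93 and 8.38 in PBS tumours, and rose by 1.31 ± 0.33 (adjusted p = 0.0409). Omd, the gene of osteomodulin, a relative of lumican, had 9.29, 8.93, 9.84 and 8.91 in CP-Dox tumours, 9.43, 8.53, 9.55 and 8.63 in Dox tumours and 8.03, 7.60, 7.75 and 8.76 in PBS tumours, and rose by 1.21 ± 0.31 (adjusted p = 0.0476). Tnxb and Omd separated CP-Dox from PBS tumours completely, Vcan did not, since PBS replicate 1 reached CP-Dox replicate 2, and the Dox tumours of all 3 overlapped the CP-Dox tumours. Leaving out 1 tumour at a time, Colgalt1 passed each time. Tnxb missed the threshold without CP-Dox replicate 4 (adjusted p = 0.0538) or PBS replicate 1 (0.0535). Vcan missed it without CP-Dox replicate 1, 3 or 4, Dox replicate 1 or 3, or PBS replicate 2, 3 or 4 (0.0617 to 0.107), and Omd without any tumour other than CP-Dox replicate 2 or PBS replicate 4 (0.0504 to 0.137). With CP-Dox replicates 1 and 3 both left out, where 2 of all 12393 genes passed, none of the 4 calls held. The values were -0.55 for Colgalt1 (adjusted p = 0.168), 0.90 for Tnxb (0.0935), 0.92 for Vcan (0.326) and 0.88 for Omd (0.385). With the skin-marker covariate, where 74 of all genes passed, Tnxb passed (0.88, limma adjusted p = 0.0494). Colgalt1 (-0.56), Vcan (1.04) and Omd (0.86) did not pass in that fit. The Tnxb value was thus larger in both fits than in the main fit, and those of Colgalt1, Vcan and Omd were smaller in size. Tnxb lay in the dimmest 40% of genes, unlike Colgalt1, Vcan and Omd, and so was absent from the fit that left these genes out.

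The remaining lists gave no call. Of 17 collagen and matrix receptors the nearest was Ddr1, a receptor tyrosine kinase for collagen, at 0.55 ± 0.15 in CP-Dox against PBS (limma adjusted p = 0.0529). Of 19 TGF-beta pathway genes and targets it was Tgfbi, a secreted TGF-beta target, at 0.65 ± 0.20 (adjusted p = 0.0829). Among 14 laminins and other basement membrane genes it was Nid2, the gene of nidogen 2, which bridges laminin and type IV collagen, at 0.59 ± 0.18 (adjusted p = 0.0818), and among 10 elastic fibre genes Fbln2, the gene of fibulin 2, at 0.89 ± 0.27 (adjusted p = 0.0760). Each of these values was positive, and none passed the test. Of the 4 lists in this order, 6 of 17, 8 of 19, 4 of 14 and 3 of 10 genes were below 0 in CP-Dox against PBS.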

How the data were processed

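RNA of 12 C26 tumours (CP-Dox, Dox and PBS, 4 mice each) was measured on Affymetrix mouse arrays, 1 per tumour. The authors deposited log2 values per probe set. The submitters' processing notes name RMA, a method of background correction, quantile normalization and probe summary, and Partek, with versions and order not given in the sources used here. RMA's quantile step sets the probe values of all arrays to 1 distribution, so a shift shared by most genes cannot be seen. The medians of the deposited arrays still differed: centring on them moved the all-gene median in CP-Dox against PBS from -0.04 to -0.09. The number of arrays limits the precision, with a median standard error of 0.13 over genes. Groups and replicate numbers came from the sample titles. No per-sample column was left unused.

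Of 22690 probe sets, 64 were controls, 20380 had 1 gene symbol, 691 several and 1555 none, by the platform annotation, and the first of these kinds gave 12393 genes. A gene was read from its probe set with the highest mean; 27 of the 54 members had several (86 probe sets in all), whose signs agreed in 21 members for CP-Dox against PBS, 18 for Dox against PBS and 20 for CP-Dox against Dox. Levels of different probe sets were not compared. Differences were tested with limma 3.58.1 in R 4.3.3 (group means over all 12 arrays, lmFit and eBayes, Benjamini-Hochberg over 12393 genes, adjusted p under 0.05), after a test on simulated data. The dimmest 40% of genes had a mean signal under 6.77; 31 members lay above it and 23 below (21 collagens, Mfap2 and Tagln). The members and lists were chosen with earlier results of these data known. All 12 values are given for members called in any comparison, the 4 with the lowest p in each, the 4 with the widest range and 17 chosen by role, and of each list outside the set the called genes or, where none was called, the 1 with the lowest p. Alternatives covered normalization, filter, probe set, variance model, array weights, samples in the fit, replicate block, threshold, skin and muscle marker covariates, and left-out arrays. Promoter windows are RefSeq's (GRCm38.p6); 35 members had one.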

Additional observations from a re-analysis of the deposited data

Results flagged for a closer look

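In 9 of the 162 sets of 4 tumours (54 genes in 3 groups), 1 tumour lay apart from the other 3 by more than the 95% critical value of Dixon's test. Chance alone gives such a value in about 1 of 20 sets. In CP-Dox tumours these were Col18a1 in replicate 4 at 10.37 (the others 11.03 to 11.16) and Pdgfrb in replicate 2 at 10.99 (9.86 to 9.92). In Dox tumours they were Col1a2 in replicate 4 at 12.77 (13.24 to 13.32), Col4a3 in replicate 4 at 5.44 (5.06 to 5.09), Col5a3 in replicate 2 at 10.78 (9.20 to 9.41) and Col6a1 in replicate 4 at 11.34 (12.14 to 12.28). In PBS tumours they were Col11a2 in replicate 2 at 5.50 (5.70 to 5.71), Postn in replicate 2 at 6.38 (7.48 to 7.66) and Tnc in replicate 4 at 6.69 (9.21 to 9.28). Replicate 4 of the Dox group accounted for 3 of the 9.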

How the results depend on the processing

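The 4 arrays per group and the spread between tumours limit what can be seen: the median standard error was 0.21 over the members and 0.13 over all genes. The 2 member calls in CP-Dox against PBS became 1 after another quantile normalization, with the most variable probe set of a gene or with the 2 groups alone, 9 with array weights, 0 with the skin-marker covariate, without CP-Dox replicates 1 and 3, at a fold of at least 2 or at an adjusted p under 0.01, and 0 to 6 with 1 tumour left out. It was 3 with a variance trend, which adds Col11a1 as lower. Dcn was called in 19 of 25 settings (0.38 to 0.59) and Thy1 in 10 (0.66 to 0.81). The members' median was 0.34 with the dimmest 40% of genes left out, beside 0.01 over all genes, and 0.02 to 0.17 with 1 tumour left out. Between CP-Dox and Dox the calls were 7 with array weights and 0 to 2 with 1 tumour left out, and the median was -0.086 (without Dox replicate 4) to 0.13 (without Dox replicate 2). Dox against PBS gave 0 member calls in each setting, with a median of 0.05 to 0.21 with 1 tumour left out.

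The replicate numbers were not used as pairs in the main fit. Deviations of same-numbered tumours correlated at -0.31 to 0.51, over 0.1 in 8 of 12 pairs. The closest match had the same number in 12 of 24 cases, where numbers that carry nothing would give 6. Whether same-numbered tumours shared a batch was not tested. With the replicate block, 4 members were called in CP-Dox against PBS (Col18a1 and Postn added), where 8.03% of all genes passed, and 0 in the other comparisons. Over all genes, the 691 calls in CP-Dox against PBS became 2665 with array weights, 198 with the 2 groups alone, 74 with the skin-marker covariate, 2 without CP-Dox replicates 1 and 3, 90 at a fold of at least 2, 143 at an adjusted p under 0.01, and 214 to 2363 with 1 tumour left out. The 28 calls in CP-Dox against Dox became 44 after another quantile normalization, 47 with the dimmest genes left out, 9 with the most variable probe set, 1960 with array weights, 0 with the 2 groups alone, 8 with the replicate block, 1 with the skin-marker and 46 with the muscle-marker covariate, 0 without CP-Dox replicates 1 and 3, 8 at a fold of at least 2, 1 at an adjusted p under 0.01, and 1 to 1150 with 1 tumour left out. Dox against PBS gave 0 to 2. The counts of 2363 and 1150 both came without CP-Dox replicate 2. With arrays centred on their medians, 204 genes rose and 534 fell in CP-Dox against PBS, beside 291 and 400, and 5 rose and 34 fell in CP-Dox against Dox, beside 7 and 21. No called value changed sign. Where fewer tumours or genes entered a fit, its construction differs; otherwise the cause was not tested.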

Other observations

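Several members had further probe sets, fitted over all 20380 single-symbol probe sets with limma. In CP-Dox against PBS all probe sets of 21 of 27 such members had the same sign, and signs differed in Acta2, Col1a1, Col20a1, Col5a1, Col5a3 and Sparc. None of the probe sets of these 6 passed the test. The further Col5a3 probe set showed -0.20 ± 0.11 where the reported one showed 0.47, and the further Col1a1 probe set showed -0.07 ± 0.17. The 3 probe sets of Lox, the gene of lysyl oxidase, showed 0.52, 0.27 and 0.73, and the last of these had a limma adjusted p of 0.0974. A further probe set of Col22a1, which encodes a collagen of tissue junctions, showed -0.33 ± 0.09 (adjusted p = 0.0548) where the reported one showed -0.03.

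Endothelial markers were the list outside the set with the most calls beside the proteoglycans, with 3 of 16 higher in CP-Dox against PBS, none lower, and a median of 0.38; 2.35% of all genes rose. Of 8 adipocyte markers 1 (Lipe, a fat-cell lipase gene) rose, and of 14 colon epithelial markers 1 (Cdh1, the gene of E-cadherin, which keratinocytes also make) rose. Cdh1 had 7.03, 5.98, 7.88 and 6.29 in CP-Dox tumours, with its 2 highest values in the skin-marker tumours, and 5.27 to 5.77 in PBS tumours. With CP-Dox replicates 1 and 3 left out only 2 of 12393 genes passed in CP-Dox against PBS by limma, both lower, so none of these calls held. The endothelial markers averaged 0.41 and 0.52 above the PBS mean in CP-Dox replicates 2 and 4, which stayed in that fit. No fibroblast marker outside the set, pericyte, keratinocyte, skeletal muscle, macrophage, or chondrocyte and bone marker passed in CP-Dox against PBS.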
